A study of Mus musculus with 36 samples.

Results

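The regions described here are the wide accessible stretches of the autosomes in mouse cortical neurons: every ATAC-seq region on chromosomes 1 to 19 that spanned at least 2000 bp. Width alone chose them, and no count or genotype difference entered the rule. Width is itself an outcome of region calling, and how regions were called or joined is not given. It may therefore depend on signal, which was not tested. The wide regions numbered 6752 of the 75322 autosomal regions, or 8.96%, and of the 76570 regions in all. Because of their length they covered 20.2 Mb, or 27.2% of all the autosomal sequence in the region list. Another 37 of the 1189 regions on chromosome X and 7 on unplaced or random sequences were as wide and were not included.

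ATAC-seq uses the Tn5 transposase to insert sequencing adapters into DNA that is not wrapped in nucleosomes, so the read count in a region reports how accessible that stretch was. Narrow accessible sites are typically single regulatory elements, while broad stretches are known to lie over active promoters and over clusters of enhancers. Actl6b encodes BAF53b, the actin-related subunit that the BAF complex carries in neurons in place of the Actl6a product of dividing progenitors; BAF uses ATP to slide and evict nucleosomes and so sets accessibility.

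Primary cortical neurons were taken from embryos at E16.5 and kept for 7 days in vitro. Accessibility was measured in 5 wild-type cultures (WT) and 7 Actl6b-/- cultures (KO), described in the series as biological replicates. All 12 had 2 h of TTX, which blocks sodium channels, and APV, which blocks NMDA receptors, so every group was electrically silenced and none was stimulated. The labels give the knockout as Actl6b-/- with no word on how the allele was made. Each title carries a code of 2 numbers (WT 3-4, KO 2-3), read here as the culture's name; what either number marks is not given. Bulk libraries cannot tell fewer cells with an open site apart from less opening per cell, and the labelled cell type was not checked, because the regions carry no gene names.

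Total counts ran from 4679644 to 7262297 in WT and from 5296643 to 7040224 in KO. A wide region was well covered: its median count ran from 212 (WT 3-7) to 329.5 (WT 4-4) per culture. A single wide region had no count in 1 culture (KO 2-3), and none was at 0 in the other 11. All 6752 wide regions passed the filter on low counts and entered the test, beside 65426 narrower autosomal regions. Region positions are in the coordinates of the deposited files, which run past the mm10 end of chromosome 1 (the last region ends at 197068294) and are taken as mm9, which the submitters' processing notes name beside mm10. With no mm9 annotation used here, regions are named by position, and whether one lay in a gene, exon, intron or UTR was not analysed here.

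Most wide regions were only a little past the threshold. Their median width was 2564 bp, with quartiles of 2231 and 3189 bp, a 90th percentile of 4213 bp and a maximum of 35530 bp. Levels are given as CPM, counts scaled to a common library size with TMM factors, for a whole region, and density as CPM per kb of its width, both averaged over the 12 cultures. The median wide region held 43.7 CPM (5th to 95th percentile 17.4 to 107), against 6.49 CPM in narrower regions and 7.19 CPM in all regions tested. Per kb the gap was smaller, at 15.4 in wide and 9.86 in narrower regions, so a gap remained per unit of length.

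Density did not keep rising with width. Regions under 500 bp had a median of 9.34 CPM per kb, those from 1500 to under 2000 bp 14.6, and those from 2000 to under 2500 bp 16.46, the highest of the 9 width classes. Beyond that it fell in steps, to 14.9 from 3000 bp, 13.4 from 4000 bp and 11.1 at 6000 bp or more. The level per region went on rising over the same classes, from 36.6 to 89.9 CPM. Nothing marked the threshold itself. The 422 regions within 50 bp below it had a median of 34.1 CPM and 17.3 CPM per kb, and the 398 regions from 2000 to 2049 bp had 32.7 CPM and 16.2 CPM per kb.

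**Figure D1:**
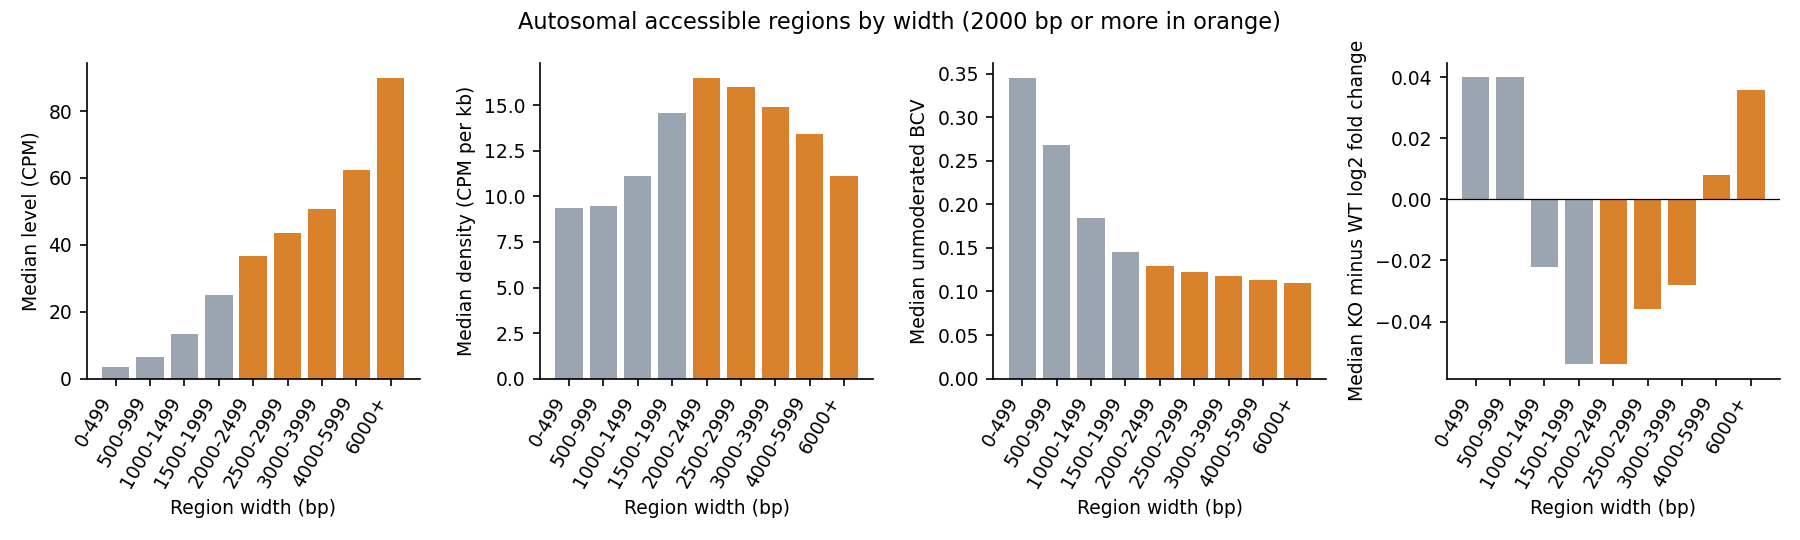
Medians over autosomal regions in 9 classes of width (x axis, bp), with regions of 2000 bp or more in orange: level in CPM per region, density in CPM per kb, spread between cultures as an unmoderated biological coefficient of variation (BCV), and the KO minus WT log2 fold change. Density peaks at 16.46 CPM per kb in the class from 2000 bp, the spread falls from 0.345 to 0.110, and the median fold change is lowest, at -0.054, on both sides of 2000 bp.

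The 5 widest regions ranged from sparse to dense. The widest, chr13:58953589-58989118 (35530 bp), was sparse, at 2.49 CPM per kb. It held 91.2, 111, 88.6, 65.4 and 93.6 CPM in WT cultures 3-4, 3-7, 4-2, 4-3 and 4-4, and from 77.9 to 102 CPM with a median of 85.9 in KO. The genotypes overlapped throughout (log2 fold change -0.05, SE 0.106; adjusted p = 0.890 by edgeR). Next to it in sparsity was the third widest, chr4:48068770-48094653 (25884 bp), at 2.46 CPM per kb and 63.8 CPM. By contrast the second widest, chr11:3052044-3080306 (28263 bp), held 1154 CPM at 40.8 CPM per kb. The fourth widest lay just before it (chr11:3026337-3048964, 22628 bp, 852 CPM), and the fifth was chr3:107259810-107281230 (21421 bp, 135 CPM, 6.30 CPM per kb). Across all 50 members of 10 kb or more the median density was 9.12 CPM per kb and the median log2 fold change was 0.015. Of these 50, 0 passed the test, a count near the 0.696% of all wide regions and 0.810% of all regions called.

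A single region stood far above the rest in density. At chr17:39979866-39985847 (5982 bp) the density was 436 CPM per kb, against 72.6 for the next, and it was the only member above 100. It held 2442, 3028, 2785, 2643 and 2869 CPM in the WT cultures in the order above, and from 1984 to 2853 CPM with a median of 2677 in KO. The 3 KO cultures whose code starts with 3 were below every WT culture, and the other 4 were not (2171, 2281 and 1984 CPM in KO 3-2, 3-3 and 3-5). The KO minus WT log2 fold change was -0.13 (SE 0.083; adjusted p = 0.478 by edgeR), with a difference of -0.34 among cultures whose code starts with 3 and -0.01 among those starting with 4. The next densest were chr14:68332920-68335170, chr17:64680395-64682421 (68.8 CPM per kb), chr18:21457586-21459950 (68.0) and chr9:13630463-13633274 (67.8). These 4 spanned 2027 to 2812 bp and had log2 fold changes from -0.07 to 0.03, none of which passed the test.

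At the sparse end 122 members held under 5 CPM per kb, and they were longer than most, with a median width of 3679 bp. The least dense were chr13:94097954-94100387 (1.18 CPM per kb), chr13:94090955-94096227 (1.40) and chr1:99807238-99809486 (1.41). At 2.88 to 7.41 CPM in all, these regions rest on few counts.

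Wide regions had a lower spread between cultures of the same genotype than narrower ones. The SD of log2 CPM within genotype (prior count 2) had a median of 0.198 over wide regions, with a 5th to 95th percentile of 0.124 to 0.327, against 0.435 over narrower and 0.410 over all regions tested. The comparison was then made at matched density: the wide regions were divided into 10 classes at the deciles of their CPM per kb, and the 65423 narrower tested regions within that range were placed in the same classes and weighted by the number of wide regions in each. At matched density the median SD was 0.204 in wide and 0.343 in narrower regions. It was lower in wide regions in 10 of 10 classes, from 0.276 against 0.601 in the sparsest class to 0.173 against 0.194 in the densest. The edgeR coefficient of variation beyond counting error (BCV) gave 0.144 against 0.228, and an unmoderated form of it, the variance of CPM less the counting variance, gave 0.127 against 0.216.

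Equal density does not mean equal counts. In the matched classes a wide region had a median of 45.2 CPM and a narrower one 19.3 CPM, because it was 2581 bp long against 949 bp. When regions were matched on CPM per region instead, most of the gap closed. Over the upper 9 of 10 level classes, with 6076 wide and 6380 narrower regions, the median SD was 0.196 in wide and 0.202 in narrower regions, the edgeR BCV 0.138 against 0.139 and the unmoderated BCV 0.122 against 0.127. The lowest level class was left out of these values, after the data were seen, because its narrower regions held a median of 6.77 CPM and its wide ones 17.4. Thinning every region to the counts expected of 500 bp at its density gave an SD of 0.270 in wide and 0.366 in narrower regions, with edgeR BCVs of 0.193 and 0.223.

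**Figure D2:**
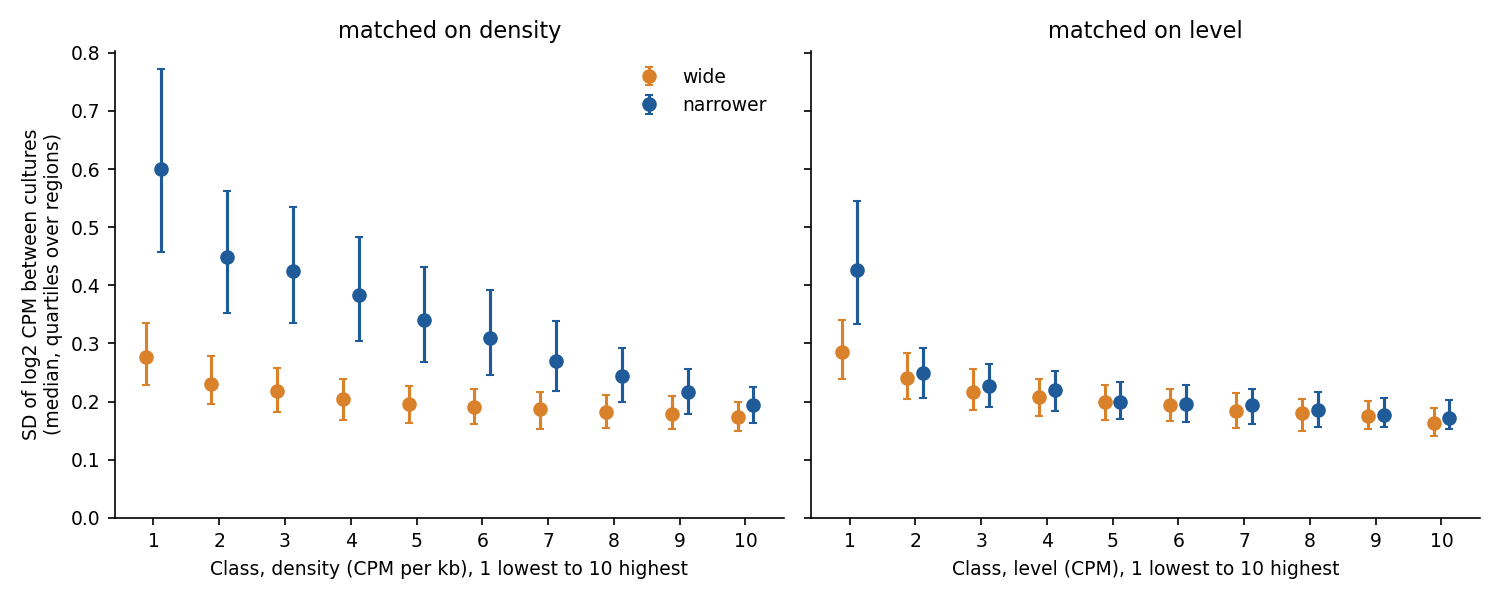
Median SD of log2 CPM between cultures of a genotype (points) with quartiles over regions (bars), for wide (orange) and narrower (blue) regions in 10 classes of density (left) or of level (right). Matched on density the wide regions are lower in every class, 0.276 against 0.601 in class 1; matched on level the medians lie close from class 2 on, where they weigh to 0.196 and 0.202.

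Single members spanned a wide range of spread. The least variable was chr3:102823105-102825731 (2627 bp), with an SD of 0.045. It held 71.8, 75.1, 75.8, 80.1 and 76.7 CPM in WT and from 73.2 to 78.3 CPM with a median of 76.4 in KO, so the KO cultures lay inside the WT range. Its change did not pass the test (SE of the log2 fold change 0.097, edgeR adjusted p = 0.995). Second was chr9:66357356-66363439 (6084 bp, SD 0.056), at 126 to 140.5 CPM in WT and 122 to 134 CPM in KO. The third, chr10:53315892-53317923 (SD 0.068), had cultures that did not overlap between genotypes, with 84.0, 80.1, 81.7, 79.0 and 79.7 CPM in WT against 67.2 to 78.9 CPM in KO. Its change of -0.17 on the log2 scale (SE 0.097) did not pass the test (edgeR adjusted p = 0.434), and KO 3-5, at 78.9 CPM, came closest to WT.

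The most variable members were sparse. The largest SD, 1.376, was at chr1:99807238-99809486 (2249 bp), where WT 4-4 had 0.283 CPM and KO 2-3 had 0, against 2.63 to 4.27 CPM in the other WT cultures and up to 7.39 CPM in KO. At chr13:94097954-94100387 the SD was 1.162. A better covered case was chr4:102523160-102525447 (2288 bp, SD 0.783), with 14.7, 3.94, 14.9, 25.7 and 5.95 CPM in WT and 9.84 to 27.2 CPM with a median of 15.7 in KO. Its WT cultures spanned a wider range than its KO cultures, and its log2 fold change of 0.36 (SE 0.413) did not pass the test.

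Few wide regions passed the test between KO and WT, and the changes called were modest in size. With edgeR's quasi-likelihood test and Benjamini-Hochberg adjustment at 0.05 over all 73346 regions tested, 47 wide regions were called (0.696%), beside 0.810% of all regions. Of these, 16 were higher in KO (0.237%, beside 0.525% of all regions) and 31 lower (0.459%, beside 0.285%). Higher calls thus made up 34.0% of the calls in wide regions, 64.8% of those in all regions and 67.8% of those in narrower ones. These shares compare regions of unequal level. Among narrower regions matched on CPM per region, without the lowest level class, 0.168% were called higher and 0.368% lower. Here each class was weighted by its number of wide regions. Wide regions of the same classes gave 0.230% and 0.510%, so lower calls led in both. Matched on density and weighted in the same way, 0.546% of narrower regions were called higher and 0.442% lower. Scaling by library totals in place of TMM gave 27 wide regions higher and 33 lower, a higher share of 45.0%. The fold changes called ran from 0.40 to 0.80 in size on the log2 scale, and 0 of the 47 reached 2-fold, whereas 293 of the 540 narrower regions called did. Those narrower regions had lower levels, with medians of 8.44 CPM (higher) and 12.4 CPM (lower), against 31.8 and 41.5 CPM in wide ones. The wide calls were spread along the width range, with median widths of 2574 bp for those higher and 2572 bp for those lower. They differed in density, with medians of 10.9 CPM per kb for the higher and 15.1 for the lower.

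The count of wide regions called depended on single cultures, as did the count over all regions. Without WT 3-4 it was 10, without WT 3-7 19, without WT 4-2 14, without WT 4-4 10, without KO 3-2 22, without KO 3-3 21, without KO 4-7 21 and without KO 4-8 30. It rose to 82 without WT 4-3 and to 133 without KO 2-3. Over the same fits the percentage of all regions called ran from 0.128% to 2.14%, and that of wide regions lay on either side of it. Lower calls outnumbered higher ones among wide regions in each of these fits but the one without WT 4-4 (6 higher, 4 lower), and higher calls outnumbered lower ones over all regions in all of them (63.2% to 73.7%). A covariate for the leading code number gave 138 wide regions, 29 higher and 109 lower, at 2.04% beside 2.00% of all regions; KO 1-1 and KO 2-3 have leading numbers of their own, so they add nothing to the genotype difference in that fit.

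Cultures of the genotypes did not overlap at 83 wide regions (1.23%, beside 1.32% of all regions), 24 of them higher in KO and 59 lower, beside 472 higher and 499 lower among all regions. Of the 47 called, 31 were among them. An unadjusted p under 0.05 was met by 903 wide regions (13.4%, beside 14.3% of all regions), 304 higher and 599 lower, beside 5786 higher and 4673 lower among all regions. Over all wide regions the median log2 fold change was -0.035, with 40.8% above 0 and a 5th to 95th percentile of -0.30 to 0.26. The median was 0.002 over all regions and 0.012 over narrower ones. Among cultures with leading number 3 alone, the median difference was -0.089 in wide and -0.007 in all regions. Among those with 4 it was -0.061 and 0.007. Total counts also differed by genotype, with a mean of 5858471 ± 1058106 (SD, n = 5) in WT and 6527963 ± 677032 (SD, n = 7) in KO. In cultures with leading number 3 the means were 4944962 in WT and 6983308 in KO, and in those with 4 they were 6467477 and 6398717. The part of total counts in the pooled and within-number differences was not tested. Thinning all libraries to the smallest total left 48 wide regions called, 42 of them among the 47.

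At matched density the median log2 fold change was -0.031 in wide and -0.027 in narrower regions. The wide median was the higher in 8 of 10 classes. The narrower regions of the sparsest class stood apart, with a median of 0.209 against 0.017 for wide regions there, at a median level of 3.35 against 17.7 CPM. The typical size of a change differed at matched density, with a median absolute log2 fold change of 0.113 in wide and 0.197 in narrower regions and median SEs of 0.119 and 0.213. With classes weighted by their number of wide regions, 0.546% of matched narrower regions were called higher in KO and 0.442% lower. Wide regions gave 0.237% and 0.459%. Over all narrower regions tested, unweighted, the shares were 0.559% and 0.266%. On matched level, over the upper 9 classes, the median absolute log2 fold change was 0.109 in wide and 0.111 in narrower regions. The median log2 fold changes there were -0.038 and -0.069. Weighted by the number of wide regions in each of these classes, 0.230% of wide and 0.168% of narrower regions were called higher. The shares called lower were 0.510% and 0.368%. Narrower regions were unevenly placed, with 2360 of the 6380 in class 2. In that class 0.741% of wide and 0.805% of narrower regions were called higher, and 0.444% and 0.975% lower. With every region thinned to the counts of 500 bp and no filter on low counts, 1 of 6752 wide regions was called, higher in KO. Among 65423 narrower regions matched on density, 120 were called higher and 53 lower. Their share called was 0.358% with classes weighted by their number of wide regions. None of these differences between wide and narrower regions was tested, since regions are not replicates of a genotype.

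**Figure D3:**
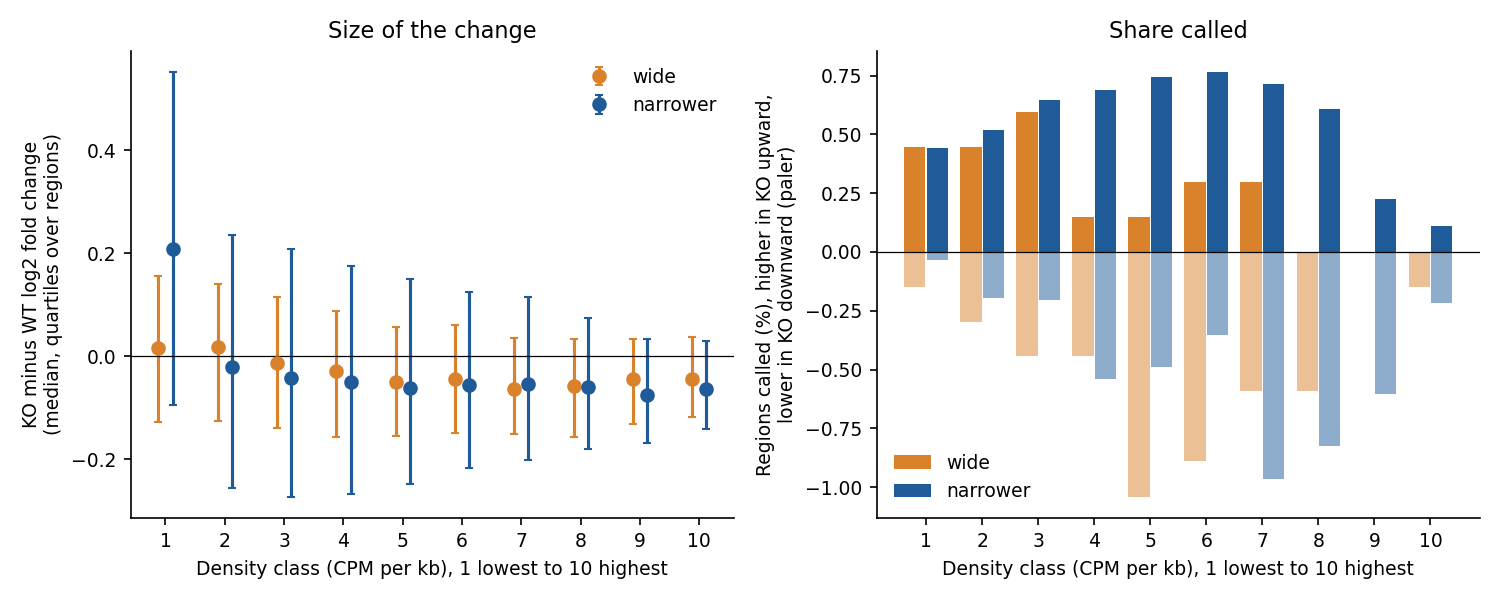
KO minus WT change in 10 classes of density, wide regions in orange and narrower ones in blue. Left, the median log2 fold change with quartiles over regions: the medians lie between -0.074 and 0.018 in all classes but narrower regions of class 1, at 0.209. Right, the percentage called higher in KO (upward) or lower (downward, paler): no wide region of classes 8 to 10 is called higher, and the wide share called lower is largest in class 5, at 1.04%.

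The sign of the median changed with width on both sides. It was 0.040 under 500 bp, -0.054 in the class from 1500 bp and again in that from 2000 bp, -0.028 from 3000 bp, 0.008 from 4000 bp and 0.036 at 6000 bp or more. In the other fits the class under 500 bp ran from 0.004, with libraries thinned to the smallest total, to 0.073, with no filter on low counts. The class from 2000 bp stayed below 0 (-0.096 to -0.032). The class from 4000 bp fell below 0 with the covariate (-0.029) and without WT 4-3 (-0.026) or KO 2-3 (-0.009), and the widest did so with the covariate (-0.002). In the widest of these classes, with 217 members, 59.4% had a fold change above 0. There 1 was called, lower in KO (0.461%, beside 0.696% of all wide regions and 0.810% of all regions).

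As a whole the wide regions took overlapping shares of the library in the genotypes. They received 34.6, 36.0, 34.6, 33.0 and 35.8% of counts in WT cultures 3-4, 3-7, 4-2, 4-3 and 4-4, a mean of 34.8% ± 1.20 (SD, n = 5). In KO the shares ran from 32.4% (KO 3-3) to 36.6% (KO 2-3), with a mean of 34.4% ± 1.37 (SD, n = 7). The genotypes overlapped over nearly their whole range, and the difference of means, -0.386 percentage points, was smaller than either SD. The KO minus WT difference was -1.30 points in the cultures with leading number 3 and -0.717 points in those with 4. The level of wide regions relative to narrower ones of matched density, in log2 CPM per kb, was -0.020, 0.108, -0.002, -0.097 and 0.074 in WT (mean 0.013 ± 0.081 SD, n = 5) and from -0.081 to 0.103 in KO (0.008 ± 0.064 SD, n = 7). The KO minus WT difference on this measure was -0.005 pooled, -0.049 in the cultures with leading number 3 and -0.029 in those with 4, each smaller than either SD. KO 3-3 and WT 4-3 were the lowest of their genotypes on both measures.

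**Figure D4:**
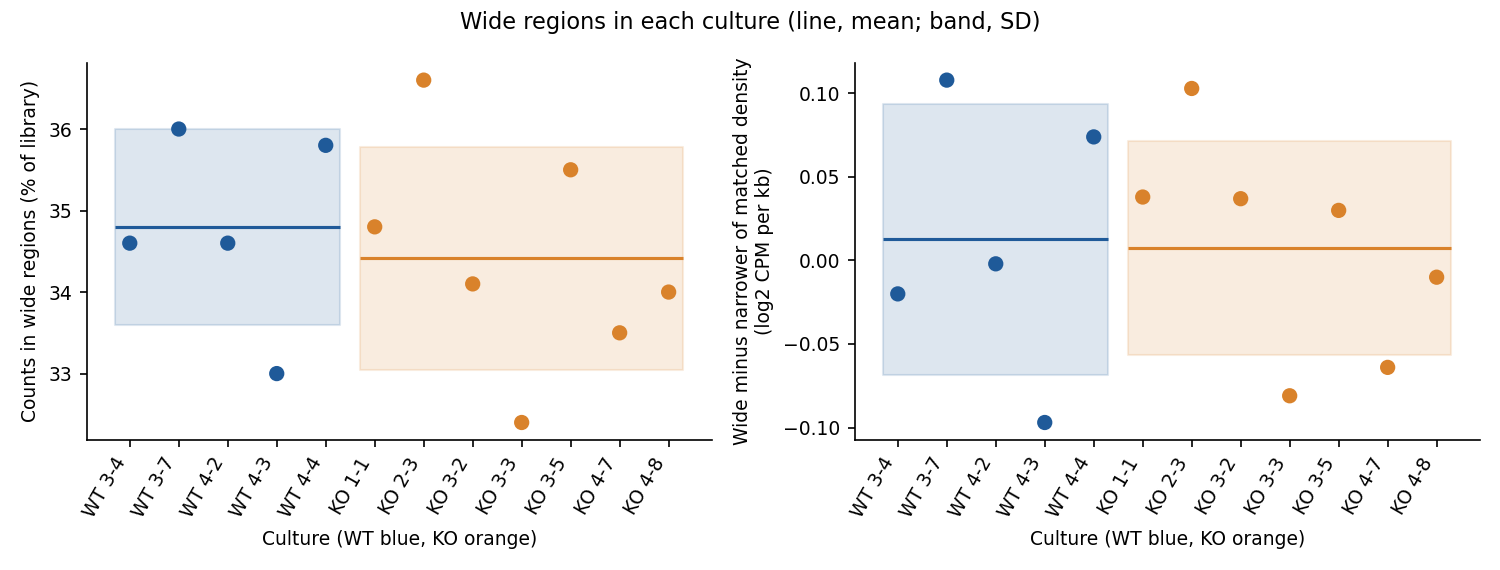
Each point is a culture (WT blue, KO orange), with the genotype mean as a line and its SD as a band. Left, the percentage of all counts that fell in wide regions; right, the median log2 CPM per kb of wide regions less that of narrower regions of matched density. The genotypes overlap on both, with means of 34.8 and 34.4% and of 0.013 and 0.008.

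The largest increase in a wide region was at chr6:125038376-125040661 (2286 bp). WT cultures 3-4, 3-7, 4-2, 4-3 and 4-4 held 30.1, 27.6, 29.0, 36.1 and 26.5 CPM, and the KO cultures from 39.4 to 59.3 CPM with a median of 52.6. Every KO culture was above every WT culture, with means of 29.8 ± 3.76 (SD, n = 5) and 52.0 ± 6.71 CPM (SD, n = 7). The log2 fold change was 0.80 ± 0.121 (SE; adjusted p = 1.77e-04 by edgeR). The call was kept under all 18 other fits, with adjusted p-values up to 0.00288. Of the 8 increases named by the rule, whose genotypes do not overlap, 3 more kept their calls in those fits. At chr4:131475569-131479201 (3633 bp) WT held 19.6, 17.1, 15.4, 18.9 and 17.1 CPM and KO from 23.7 to 33.3 CPM with a median of 30.4 (log2 fold change 0.72, edgeR adjusted p = 0.00749). At chr4:139625145-139627270 (2126 bp) WT held 26.8, 28.9, 28.0, 38.3 and 33.1 CPM and KO from 40.2 to 54.2 CPM with a median of 52.3 (log2 fold change 0.66, adjusted p = 0.00352). The WT culture closest to KO at this region was 4-3, which was also the highest WT culture at the chr6 region. At chr5:125724068-125726603 (2536 bp) WT was tight, with 26.6, 30.6, 30.5, 28.2 and 30.9 CPM, and KO ran from 34.1 to 52.0 CPM with a median of 45.9 (log2 fold change 0.61, adjusted p = 0.00749).

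The other increases named by the rule were less stable. At chr9:62131422-62133543 (2122 bp) WT held 8.93, 10.9, 16.0, 18.9 and 14.3 CPM against 19.5 to 27.1 CPM in KO (log2 fold change 0.77, edgeR adjusted p = 0.0153), with WT 4-3 just below the lowest KO culture. That call was lost without WT 3-4, 3-7 or 4-4 (adjusted p up to 0.0803). The increases at chr10:79803679-79806814 (3136 bp, 17.4 ± 2.23 CPM in WT and 27.4 ± 5.07 in KO, adjusted p = 0.0209) and chr5:121097903-121100054 (2152 bp, 18.7 ± 2.93 and 29.2 ± 4.48 CPM, adjusted p = 0.0219) were lost without WT 3-4, 3-7, 4-2 or 4-4 or KO 3-2 or 3-3. Their adjusted p-values then reached 0.0863 and 0.102. The increase at chr5:118512968-118515286 (2319 bp, 19.6 ± 2.41 and 28.7 ± 4.01 CPM, adjusted p = 0.0436) was lost in 8 of the 18 other fits: without WT 3-4, 3-7, 4-2 or 4-4, or KO 3-2, 3-3, 4-7 or 4-8 (up to 0.156).

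Among the decreases, chr4:101222158-101224269 (2112 bp) fell furthest. WT held 29.1, 36.8, 30.2, 29.0 and 30.4 CPM and KO from 13.9 to 23.2 CPM with a median of 20.3. No culture overlapped, and WT 3-7 stood above the other 4 WT cultures (means 31.1 ± 3.24 CPM, SD, n = 5, and 19.3 ± 3.21 CPM, SD, n = 7). On the log2 scale the change was -0.69 (SE 0.141; adjusted p = 0.00918 by edgeR). It was called in all 18 other fits, narrowly in the least favourable (adjusted p = 0.0495). The firmest decrease was at a longer region, chr16:77235555-77239897 (4343 bp). There WT held 81.3, 69.1, 79.6, 77.9 and 71.6 CPM and KO from 46.6 to 61.9 CPM with a median of 52.9 (log2 fold change -0.53, SE 0.102, adjusted p = 0.00607). The differences among cultures whose code starts with 3 and with 4 were nearly equal, at -0.52 and -0.57, and the call was kept in all 18 fits (adjusted p up to 0.0332).

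At chr1:22811889-22813957 (2069 bp) WT held 54.1, 67.6, 47.3, 39.9 and 46.0 CPM and KO 30.6 to 37.5 CPM with a median of 33.2 (log2 fold change -0.60, edgeR adjusted p = 0.00757). WT 3-7 was the highest, and without it the adjusted p was 0.0625. The decrease at chr14:121777340-121779564 (2225 bp, 39.6 ± 6.53 CPM in WT and 26.4 ± 2.80 in KO, adjusted p = 0.0146) was lost without WT 4-2 or 4-4 (up to 0.0922). Another long member, chr7:20332671-20337475 (4805 bp), held 80.1, 69.1, 69.7, 77.2 and 71.2 CPM in WT, while KO split into 5 cultures at 41.4 to 53.2 CPM and KO 2-3 and 4-8 at 68.2 and 66.3 CPM, just under WT. Its call (log2 fold change -0.49, adjusted p = 0.0228) was lost without WT 3-4 or 4-4 or KO 3-2, 3-3 or 4-7 (up to 0.0887).

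The remaining 3 decreases named, chr1:170175593-170178453 (2861 bp), chr6:120865190-120867338 (2149 bp) and chr10:116812733-116815085 (2353 bp), had log2 fold changes of -0.53, -0.52 and -0.52 and edgeR adjusted p-values of 0.0365, 0.0481 and 0.0231. The first was lost in 9 of 18 other fits (without WT 3-4, 3-7, 4-2 or 4-4, without KO 3-2, 3-3, 4-7 or 4-8, and with libraries thinned; up to 0.158). The second was lost in 13, with RLE scaling, library totals, thinned libraries and every left-out culture but WT 4-3 and KO 2-3 (up to 0.137). The third was lost without WT 3-4, 3-7 or 4-4 or KO 4-8 (up to 0.104).

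**Figure D5:**
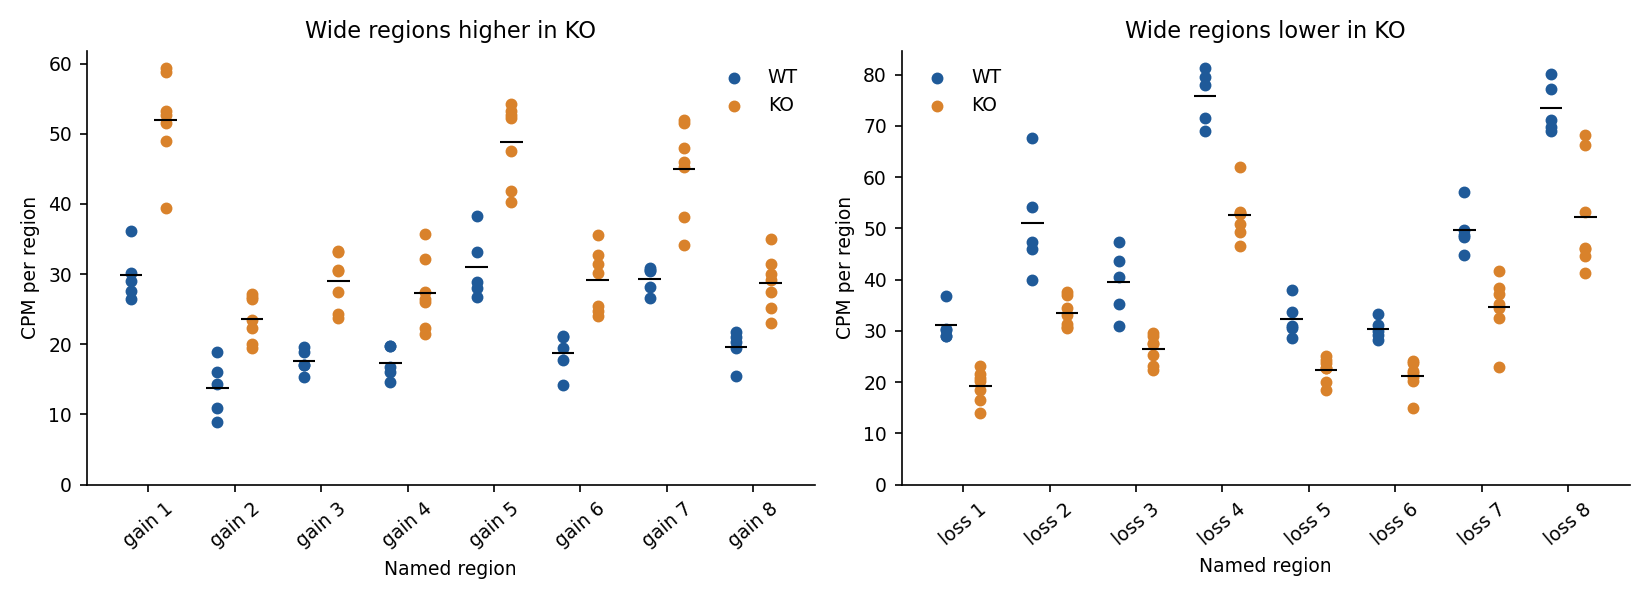
CPM per region in each culture (WT blue, KO orange, genotype means as lines) for the 8 largest increases (left) and 8 largest decreases (right) called among wide regions whose genotypes do not overlap, in the order of their fold change. Gain 1 is the chr6 region at 29.8 against 52.0 CPM, and loss 4 the chr16 region at 75.9 against 52.5 CPM.

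Wide regions lay closer to other accessible regions than narrower ones did. Another region lay within 500 bp of 13.4% of them, against 7.41% of narrower regions of matched density and 8.58% of all regions, and within 5000 bp of 49.4%, 36.5% and 40.2%. The median gap to the nearest region was 5090.5 bp for wide and 7889 bp for matched narrower regions. These gaps depend on how regions were called and joined, which is not given. Joining wide regions under 10 kb apart, a distance chosen after the data were seen, left 5083 on their own and placed 1669 (24.7%) in 681 runs, 59 of them with 4 or more members. Fold changes of neighbouring wide regions were correlated, weakly. Across 224 pairs under 1 kb apart Pearson's r was 0.31, across 615 pairs 1 to 10 kb apart 0.24 and across 551 pairs 10 to 100 kb apart 0.19, against 0.16, 0.05 and 0.04 in pairs of narrower regions (3832, 17668 and 32761 pairs). All pairs share the same 12 libraries, and narrower regions had fewer counts.

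None of the members of the 8 largest runs passed the test, a count near the 0.696% of all wide regions called; their median densities ran from 1.64 to 11.2 CPM per kb. The largest, chr13:58906734-59048806, held 16 wide regions over 142 kb, 81.4% of it covered, at a median of 2.83 CPM per kb, and it contains the widest member of all. Within this run the gap from a member to the next region of any width ran from 5 to 8468 bp. Its summed level was 388, 461, 366, 299 and 389 CPM in WT and 330.4 to 395 CPM with a median of 366 in KO. Next came chr17:8764603-8852850, with 13 wide regions over 88.2 kb at 2.81 CPM per kb. Its WT sums were close, at 221, 248, 222, 224 and 223 CPM, and 6 of the 7 KO sums lay below all of them, since KO ran from 184 to 222 CPM with a median of 200.5. The log2 ratio of means was -0.18, and its 13 members had single fold changes from -0.67 to 0.21.

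A denser run, chr1:90108043-90205322, held 10 wide regions over 97.3 kb at 8.23 CPM per kb. All 10 had a negative fold change, from -0.43 to -0.15, and none passed the test; without WT 3-4, 2 of them were positive. The sums were 1430.3, 1039, 850.4, 897 and 910.4 CPM in WT and 690.4 to 1218 CPM with a median of 829 in KO. WT 3-4 and KO 1-1 were the highest of their genotypes, and the ranges overlapped. The sparsest of the 8 largest runs was chr13:94086165-94145943, with 9 wide regions at 1.64 CPM per kb, among them the 2 least dense members; its sums were 107, 130.0, 104, 81.2 and 93.7 CPM in WT and 78.4 to 96.8 CPM in KO. In the opposite direction, 7 of the 8 members of chr17:25928269-25999322 had positive fold changes (6 to 8 in the other fits), with sums of 441, 463, 422, 365 and 474 CPM in WT and 406 to 514 CPM with a median of 484 in KO.

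The 4 wide regions of chromosome 11 between positions 3026337 and 3100146 moved together across cultures. The widest of them, chr11:3052044-3080306, held 1656, 1735, 1031, 902 and 1155 CPM in WT and 653 to 1442 CPM with a median of 1072 in KO. WT 3-4, WT 3-7 and KO 1-1 were the highest at this region and at its neighbours chr11:3026337-3048964 and chr11:3080622-3100146, where they held 1160.4, 1250.1 and 1094 CPM and 1099, 1126 and 1045 CPM. The KO minus WT difference at the widest was -0.95 among cultures whose code starts with 3 and 0.02 among those starting with 4, so the pooled log2 fold change of -0.30 (SE 0.224; adjusted p = 0.597 by edgeR) did not hold within both.

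Chromosomes differed in how many of their regions were wide. The share was highest on chromosome 11, at 15.1% (681 of 4503), and lowest on chromosomes 14 and 3, at 5.86% and 5.98%; on chromosome X it was 3.11%. The median KO minus WT log2 fold change of wide regions broadly followed that order. It ran from -0.108 on chromosome 18 and -0.100 on chromosome 1 to 0.020 on chromosome 11, where it was below 0 with the covariate (-0.025) and without WT 4-3 (-0.019) or KO 2-3 (-0.013). Across the 19 autosomes the share of wide regions and their median fold change had a Spearman correlation of 0.85 and a Pearson correlation of 0.90, and the former ran from 0.76 to 0.89 under the other fits. The share of wide regions was correlated in the same direction with the median fold change of narrower regions of matched density (0.73 and 0.79). These are descriptions over 19 points from the same 12 libraries.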

How the data were processed

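ATAC-seq was analysed in 12 libraries of cortical neurons, 5 WT and 7 KO. The deposited files give whole-number read counts per region, in the same 76570 regions in every library, per the file contents. Per the submitters' processing notes, the tools were Bowtie2, MACS2, bedtools, Trim Galore, DESeq2 and kallisto 0.44.0, without their roles, and mm10 and mm9 are both listed as builds. The sources used here do not give how regions were called or joined, which sets their widths, or any shift of reads for Tn5. Groups follow the genotype in the labels. p-values measure the spread between cultures.

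All regions were fitted together with edgeR 4.0.16 (R 4.3.3; TMM, filterByExpr by group, robust quasi-likelihood F-test, no covariate, Benjamini-Hochberg over 73346 regions, threshold 0.05). The SE is the log2 fold change divided by the square root of F. DESeq2 1.42.0 was an alternative. Spread is the within-genotype SD of log2 CPM with prior count 2. Starts are printed counting from 1. The steps were tested on simulated data.

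Regions were named by rule: the 5 widest, 5 densest and 3 least dense; up to 8 called per direction with at least 1 CPM and genotypes that do not overlap, by size of change; the 3 with the largest and the 3 with the smallest SD; and the 3 highest uncalled. Runs and their neighbours were named after their values were seen. The members, lists and rules were chosen with earlier results of these data known. The 24 RNA-seq libraries were not used here.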

Additional observations from a re-analysis of the deposited data

Results flagged for a closer look

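In 70 checks, of each genotype's log2 CPM at the 33 regions named by rule and of its share and relative level of wide regions, 5 had a culture far from the others of its genotype by Dixon's gap ratio. The ratio flags about 1 in 20 by chance where regions are not chosen by their values. Some of these regions were named for their SD or for genotypes that do not overlap, so the 5 cannot be set against that rate. At chr1:99807238-99809486, the member of largest SD, the lowest culture was WT 4-4 (0.283 CPM, gap 0.782 of the WT range) and in KO it was KO 2-3 (0 CPM, gap 0.620). At chr4:101222158-101224269 WT 3-7 was the highest WT culture, with 36.8 CPM and a gap of 0.791. At chr6:120865190-120867338 KO 3-5 was lowest, with a gap of 0.628, and at chr10:116812733-116815085 KO 4-8 was lowest, with 22.9 CPM and a gap of 0.583. The last 2 regions were called lower in KO, and each lost its call without that culture (edgeR adjusted p = 0.0816 and 0.0659), with log2 fold changes of -0.45 and -0.44 in place of -0.52 and -0.52. The first of them lost its call in 13 of the 18 other fits and the second in 4.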

How the results depend on the processing

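No paired analysis was possible because no WT and KO culture share a code. The median fold change of wide regions stayed below 0 in all 18 other fits, from -0.077 to -0.014. The sign of the median on chromosome 11 and in the class from 4000 bp turned in the fits named with them. Higher calls outnumbered lower ones without WT 4-4 (6 and 4). The wide median was above that of matched narrower regions at 2500 bp (-0.020 and -0.025) and 3000 bp (-0.011 and -0.020) and without WT 3-7, KO 3-3 or KO 4-7. The wide median of -0.035 was also above that of narrower regions of at least 1000 bp only (-0.042) and of narrower regions matched on CPM (-0.062). Counts called moved most. DESeq2 gave 38 higher and 63 lower, so 101 of its 1221 calls were wide, beside 47 of 594 in the main fit. It called 1.63% of all regions, against 0.810%. Library totals gave 27 higher, with 0.889% of wide regions called beside 0.781% of all regions. The matched narrower median fold change was then -0.005. The first code number as covariate gave 29 and 109, and an adjusted p of 0.01 gave 4 and 4. Thinning to 500 bp (these counts were added after the data were seen) gave 1 and 0. Leaving out each culture gave 4 to 33 higher and 4 to 100 lower.

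With wide regions defined as at least 1500 bp, 43 were higher and 52 lower, the median SDs were 0.223 in wide and 0.363 in narrower regions, the wide BCV 0.155, the level 34.3 CPM and the shares of counts 51.6% in WT and 50.8% in KO. At 2500 bp the values were 10 and 17 regions, 50.8 CPM, 21.8% and 21.7%. At 3000 bp they were 5 and 9 regions, a wide SD of 0.189, 57.1 CPM, 14.1 CPM per kb, and 13.8% in both genotypes. Changing the width limit left the test itself unchanged, with 0.810% of all regions called. Using only narrower regions of at least 1000 bp lowered their matched SD to 0.269 and BCV to 0.180. Matching on CPM gave narrower regions a median fold change of -0.062, an SD of 0.225 and a BCV of 0.154. A prior count of 0.5 raised the narrower SD to 0.357. Thinning to 500 bp gave SDs of 0.270 and 0.366 and a wide BCV of 0.193. The other alternatives left these values within the tolerance set for each. Depth limits members of low total level, such as the 3 least dense, at 2.88 to 7.41 CPM.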
